A study of Mus musculus with 9 samples.

Results

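Expression of 10 microglia genes was examined in RNA sequencing of the mouse hippocampus. The genes were Tmem119, P2ry12, Cx3cr1, Csf1r, Aif1, Trem2, Tyrobp, C1qa, C1qb and C1qc, chosen by name as genes whose expression in the brain is largely that of microglia, out of 54532 genes listed. All 10 were found, and all 10 passed the filter on low values (a mean of at least 1 FPKM, fragments per kilobase of gene scaled to the reads of the library, over the libraries compared) in every comparison. The 9 samples formed 3 groups with 3 each, from mice labelled male and 6 to 8 weeks old at the outset, of the strain C57BL/6 by the growth protocol. The controls, Con, were wild type on ordinary chow. Excess methionine, which raises homocysteine, was given in the diet of the HMD group over 8 weeks. The Bet+HMD group had the same 8 weeks of this diet and then drank water with 2.5% (w/v) betaine, a donor of methyl groups, for 2 weeks. The groups carried no engineered allele. Whether the high-methionine diet continued during the betaine weeks was not clear from the descriptions. No group received betaine without the high-methionine diet.

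Microglia are the resident macrophages of the brain. They depend on signalling through the receptor Csf1r, survey their surroundings with receptors such as P2ry12 and Cx3cr1, and clear cell debris and synapses, in part through the complement protein C1q and the receptor Trem2 with its adaptor Tyrobp. In the hippocampus they are known for pruning synapses and for lowering surface proteins such as P2ry12 and Tmem119 when they become reactive. In a bulk sample of tissue, fewer microglia and less RNA of these genes per microglial cell cannot be told apart.

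The values were deposited in 2 tables that were scaled separately. One held the 6 Con and HMD libraries, and the other held these 6 again with the 3 Bet+HMD libraries. HMD was compared with Con in the table of 6, and both comparisons of Bet+HMD were made in the table of 9. Libraries held 16031464 to 18566712 reads assigned to genes. The control columns are headed with a prefix other than that of the control sample titles and were matched to them by elimination. The labels give male mice whereas the study's methods give female mice. Xist was at 0 to 0.0449 FPKM and the Y-linked gene Ddx3y at 12.7 to 21.2 FPKM in all 9 libraries. The strain labels of the Bet+HMD samples read C57BL/6, C57BL/7 and C57BL/8. The Bet+HMD libraries were present in the larger table alone and stood apart from the rest: 25.5% of all 13672 genes tested were lower and 22.8% were higher than in HMD by limma at an adjusted p under 0.05. Betaine, the weeks on it and a difference between the sets of libraries cannot be told apart. Nothing in the labels says that the 3 samples of a group came from separate animals, so the p-values measure the spread between these samples, which may be technical. That spread was unlike between groups. Between pairs of replicates, the chi-square of the reads per degree of freedom was 3.00 to 4.21 in Bet+HMD. It was 11.8 to 42.2 in Con and HMD. The limma fit takes a common variance for both groups.

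Positions are given in the build mm10. The 3 genes for the chains of C1q lie side by side on the minus strand of chromosome 4, C1qb at 136880129 to 136886187, C1qc at 136889804 to 136893065 and C1qa at 136895917 to 136898803, within 18675 bases. Together their products form C1q, the recognition molecule that starts the classical complement pathway. Trem2 lies on chromosome 17 from 48346401 to 48354147 and Aif1 on the same chromosome from 35170991 to 35176068. Tyrobp lies on chromosome 7 from 30413760 to 30417585, and Tmem119 on chromosome 5 from 113793729 to 113800516. None of these genes shares its span with another annotated gene. P2ry12, on chromosome 3 from 59216272 to 59262871, lies within the span of Med12l on the other strand. The annotated span of Cx3cr1, on chromosome 9 from 119901616 to 120069879, holds parts of 9 other genes, and that of Csf1r overlaps Hmgxb3 on the other strand and the microRNA gene Mir6983. Whether reads were counted by strand is not stated, so the values of these 3 genes can hold reads of their neighbours.

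The promoters of the C1q genes that were lower in Bet+HMD are shown beside those of P2ry12 and Cx3cr1, which did not pass the test in any comparison. The windows run from 250 bases before to 50 bases after the annotated start (RefSeq, GRCm38.p6) and are written 5′ to 3′ on the strand of the gene. All 4 genes are on the minus strand, C1qb at chr4:136886151-136886450, C1qc at chr4:136892865-136893164, P2ry12 at chr3:59262936-59263235 and Cx3cr1 at chr9:120068247-120068546. Capitals mark GAGGAA, read on either strand (TTCCTC on the other), a core of the sites bound by PU.1, the transcription factor that myeloid cells require.
C1qb: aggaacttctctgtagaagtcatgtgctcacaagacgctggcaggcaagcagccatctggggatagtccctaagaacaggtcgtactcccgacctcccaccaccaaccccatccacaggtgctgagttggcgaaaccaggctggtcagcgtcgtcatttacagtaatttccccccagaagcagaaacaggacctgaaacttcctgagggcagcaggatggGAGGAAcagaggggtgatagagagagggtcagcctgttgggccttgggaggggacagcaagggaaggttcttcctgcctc
C1qc: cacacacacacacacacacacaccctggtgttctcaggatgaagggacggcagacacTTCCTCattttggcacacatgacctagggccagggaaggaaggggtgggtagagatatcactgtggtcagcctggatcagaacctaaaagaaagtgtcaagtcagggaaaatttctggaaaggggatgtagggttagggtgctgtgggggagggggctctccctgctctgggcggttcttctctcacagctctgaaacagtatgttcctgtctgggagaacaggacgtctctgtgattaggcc
P2ry12: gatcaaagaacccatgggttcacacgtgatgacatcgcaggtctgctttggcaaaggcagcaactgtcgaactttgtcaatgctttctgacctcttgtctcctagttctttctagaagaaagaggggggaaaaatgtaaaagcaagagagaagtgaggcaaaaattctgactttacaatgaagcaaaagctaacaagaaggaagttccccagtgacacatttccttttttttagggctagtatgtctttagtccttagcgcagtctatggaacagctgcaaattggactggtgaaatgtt
Cx3cr1: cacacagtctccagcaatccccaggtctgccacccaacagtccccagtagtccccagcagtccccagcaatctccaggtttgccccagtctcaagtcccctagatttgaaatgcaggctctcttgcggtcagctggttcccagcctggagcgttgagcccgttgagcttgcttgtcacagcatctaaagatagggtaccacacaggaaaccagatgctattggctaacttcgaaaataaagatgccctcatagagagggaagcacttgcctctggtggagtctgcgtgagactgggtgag
The letters occurred 1 time each in the windows of C1qb and C1qc and not in those of P2ry12 and Cx3cr1. They also occurred in the windows of Aif1 and Trem2, so that 4 of the 6 member promoters examined held them. The promoter of Csf1r was not examined. Of all 32851 promoter windows of this length, 28.3% held them, and a match is a description of the sequence alone.

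In Con mice, C1qb had the highest level per length of the 10 genes, at 33.0 FPKM ± 4.85 (SD, n = 3; table of 9 libraries). C1qa followed at 19.3 ± 12.99, P2ry12 at 18.0 ± 1.23 and Csf1r, the receptor for colony-stimulating factor and interleukin-34, at 17.8 ± 2.42. The order of these 3 was not resolved beyond the spread between replicates. C1qc was at 12.3 ± 3.24, Cx3cr1, the receptor for the neuronal chemokine Cx3cl1, at 11.1 ± 0.320, Tyrobp at 10.1 ± 2.58 and Tmem119, a surface protein of microglia, at 9.13 ± 0.916. These levels overlapped between neighbours in the order. Aif1, an actin-binding protein also known as Iba1, was at 1.96 ± 0.370 and Trem2 at 1.86 ± 0.411. Both were far below the other 8 and rested on few reads, 24 to 60 per library for Aif1 and 79 to 193 for Trem2. The gene length used in the table was 4946 bases for Trem2, whose longest coding transcript has 1088, and 1532 bases for Aif1, whose longest has 875, so that their levels per length are lower than a single transcript would give. The gene whose replicates differed most was C1qa, with 13.3, 10.3 and 34.2 FPKM in Con replicates 1, 2 and 3.

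**Figure D1:**
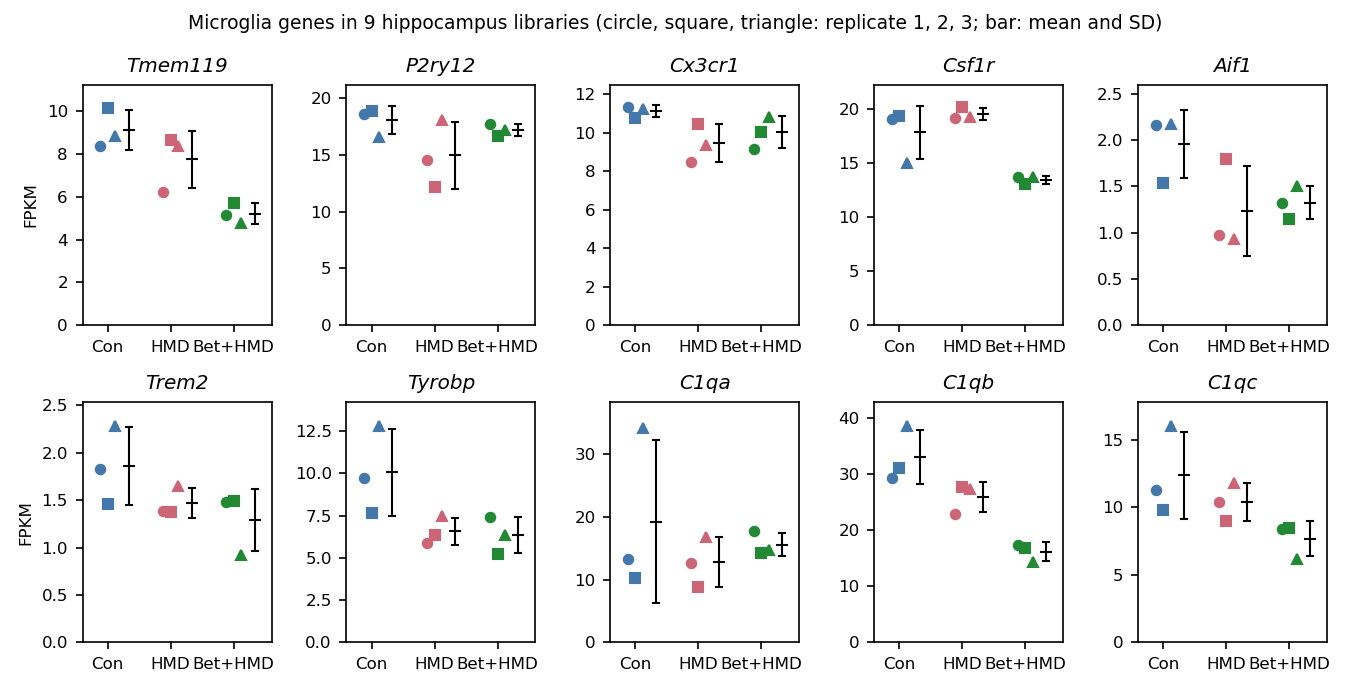
FPKM (vertical axes, from 0) of the 10 microglia genes in the 9 libraries of the larger table, by group (horizontal axes). Symbols are single libraries and bars are the mean and SD of 3. In Csf1r, Tmem119, C1qb and C1qc every Bet+HMD library lies below every Con and HMD library, and in C1qa replicate 3 of Con lies far above the other 8 libraries.

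HMD was compared with Con to ask which genes respond to the diet. None of the 10 microglia genes passed the test. Of the 10, 9 had a lower mean in HMD and Csf1r a higher one. Their median log2 fold change, taken here and below on log2(FPKM + 1), was -0.24, beside -0.0038 over the 12989 genes tested. Of these 12989 genes, 6621 had a negative log2 fold change. No gene of the whole table passed in this comparison (0% called, smallest limma adjusted p = 0.124), while 592 genes had an unadjusted p under 0.05. At that level Tyrobp was the only microglia gene.

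Tyrobp, the adaptor that carries the signal of Trem2, measured 9.39, 7.80 and 12.4 FPKM in Con and 5.73, 6.51 and 7.42 in HMD. Every HMD library lay below every Con library, by -0.51 ± 0.17 (SE) on the log2 scale (limma adjusted p = 0.980). C1qb measured 28.9, 30.5 and 37.5 FPKM in Con and 22.5, 27.3 and 27.1 in HMD, a difference of -0.32 ± 0.14 on the log2 scale (limma adjusted p = 0.980). The groups did not overlap here either. Cx3cr1 measured 11.3, 10.8 and 10.95 FPKM in Con and 8.41, 10.4 and 9.21 in HMD, which differed by -0.22 ± 0.11 on that scale (limma adjusted p = 0.980). These were the 3 microglia genes whose groups did not overlap, all lower in HMD. Over all genes tested, 4.66% did not overlap and were lower and 4.71% were higher.

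The other microglia genes overlapped between Con and HMD. Aif1 measured 2.097, 1.48 and 2.11 FPKM in Con and 0.914, 1.70 and 0.881 in HMD, where replicate 2 of HMD lay above replicate 2 of Con. Its log2 fold change was -0.43 ± 0.19 (limma adjusted p = 0.980). C1qa measured 13.5, 10.1 and 33.3 FPKM in Con and 12.7, 8.82 and 16.6 in HMD. The Con mean rested on replicate 3, and without that library the log2 fold change of C1qa went from -0.41 to 0.07. P2ry12 (-0.26), Tmem119 (-0.21), Trem2 (-0.22) and C1qc (-0.22) had small negative log2 fold changes. Csf1r stood at 0.13, with 95% limits of -0.16 and 0.43. The lower 95% limits of the 10 genes ran from -0.16 (Csf1r) to -1.36 (C1qa) on the log2 scale. Falls down to these limits remained compatible with the values of 3 samples a group.

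Other values moved with the diet groups beside these genes. Protein-coding genes in the shortest length decile, which held Tyrobp, C1qa, C1qb and Aif1, had a median log2 fold change of -0.11. After each library was centred within length deciles, the median of the 10 genes was -0.21. The summed FPKM of 5 thalamus markers was 12.5 to 17.3 in Con and 24.1 to 73.0 in HMD, and that of 5 red cell genes was 98.0 to 147 in Con and 147 to 230 in HMD. The sum of 6 endothelium markers was 47.5 to 51.5 FPKM in Con and 42.7 to 43.2 in HMD, lower in every HMD library like the microglia genes named above, and 0 of the 6 passed the test. In the table of 9 libraries it was 41.1 to 41.8 in Bet+HMD. The part of gene length, of neighbouring tissue, of blood and of vessels in the lower microglia values was not tested.

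The response of Bet+HMD against HMD was uneven among the 10 genes. C1qb, Csf1r, Tmem119 and C1qc fell, 4 of the 10. No microglia gene rose, and the values of P2ry12, Cx3cr1, Aif1, Trem2, Tyrobp and C1qa did not pass the test. Of all genes, 25.5% fell and 22.8% rose, so that 4 of 10 stands near the background of this comparison. The median log2 fold change of the 10 was -0.08, beside -0.03 for all genes tested. None of the 4 reached the absolute log2 fold change of 1 that the study asked for.

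Csf1r, the receptor on which the survival of microglia depends, measured 19.2, 20.2 and 19.2 FPKM in HMD and 13.6, 13.01 and 13.7 in Bet+HMD. The replicates of each group lay close together and the groups far apart, by -0.51 ± 0.06 (SE) on the log2 scale (limma adjusted p = 0.000852). Csf1r was called in all 20 alternative settings. C1qb measured 22.9, 27.7 and 27.3 FPKM in HMD and 17.4, 16.9 and 14.3 in Bet+HMD, lower by a log2 fold change of -0.65 ± 0.11 (limma adjusted p = 0.00255). It was also called in all 20 settings.

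Tmem119 measured 6.24, 8.65 and 8.39 FPKM in HMD and 5.17, 5.71 and 4.76 in Bet+HMD. Every Bet+HMD library was lower, although replicate 1 of HMD was close to them, and the log2 fold change was -0.49 ± 0.13 (limma adjusted p = 0.0170). It missed the threshold after rescaling to TPM (every library brought to the same total) and without replicate 1 (-0.48, limma adjusted p = 0.0543) or replicate 3 (-0.43, 0.0645) of Bet+HMD. C1qc measured 10.4, 8.99 and 11.8 FPKM in HMD and 8.38, 8.46 and 6.19 in Bet+HMD, a log2 fold change of -0.40 ± 0.14 (limma adjusted p = 0.0484). The gap between the groups was only that between 8.46 and 8.99 FPKM, and C1qc passed in 4 of 20 alternative settings. It missed the threshold when any library other than HMD replicate 2 was left out, with log2 fold changes of -0.27 (without Bet+HMD replicate 3) to -0.47 (without Bet+HMD replicate 2). These 4 were also the microglia genes whose groups did not overlap. Of all genes, 31.8% did not overlap and were lower, and 28.3% were higher.

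C1qa did not follow its neighbours C1qb and C1qc. It measured 12.7, 8.85 and 16.9 FPKM in HMD and 17.7, 14.3 and 14.8 in Bet+HMD, a log2 fold change of 0.30 ± 0.21 (limma adjusted p = 0.258). P2ry12, the purinergic receptor that guides microglial processes, measured 14.6, 12.2 and 18.1 FPKM in HMD and 17.7, 16.7 and 17.1 in Bet+HMD, a log2 fold change of 0.20 ± 0.13 (limma adjusted p = 0.233). Replicate 3 of HMD overlapped the Bet+HMD libraries, and without it C1qa (0.51, limma adjusted p = 0.0414) and P2ry12 (0.34, 0.0229) passed as higher. Cx3cr1 (8.50 to 10.5 FPKM in HMD and 9.17 to 10.8 in Bet+HMD, log2 fold change 0.08), Aif1 (0.928 to 1.79 and 1.14 to 1.4997, 0.07), Trem2 (1.37 to 1.65 and 0.917 to 1.49, -0.11) and Tyrobp (5.87 to 7.46 and 5.25 to 7.42, -0.05) overlapped fully or nearly so. Their 95% intervals ran from -0.45 (Trem2) to 0.48 (Aif1).

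Against Con, all 10 microglia genes had a lower mean in Bet+HMD, and 5 of them fell: C1qb, Tmem119, Csf1r, C1qc and Tyrobp. None rose. Of all 13643 genes tested, 20.4% were lower and 19.4% were higher. The median log2 fold change of the 10 was -0.36, beside -0.04 for all genes. Of all 13643 genes, 7319 had a negative log2 fold change. The HMD libraries are not part of this comparison, but the Bet+HMD libraries are the same as in the one above, so the calls in both are not separate observations.

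C1qb, at 29.3, 31.1 and 38.5 FPKM in Con, had the largest of the 10 differences, with a log2 fold change of -0.98 ± 0.13 (SE; limma adjusted p = 0.00180). Tmem119, at 8.38, 10.2 and 8.86 FPKM in Con, had a log2 fold change of -0.70 ± 0.10 (limma adjusted p = 0.00240). C1qb and Tmem119 were called in all 20 alternative settings. Csf1r measured 19.0, 19.4 and 15.0 FPKM in Con, a log2 fold change of -0.37 ± 0.11 (limma adjusted p = 0.0353). Replicate 3 of Con was close to the highest Bet+HMD library, at 13.7 FPKM, and Csf1r passed in 10 of 20 settings. Without Con replicate 3 it stayed called, and without any other library it missed the threshold, at -0.31 (without Con replicate 2) to -0.38 (without Bet+HMD replicate 3).

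C1qc measured 11.3, 9.78 and 16.0 FPKM in Con and Tyrobp 9.70, 7.68 and 12.8. Their log2 fold changes were -0.61 ± 0.19 (limma adjusted p = 0.0430) and -0.57 ± 0.19 (limma adjusted p = 0.0482). Both stood just inside the threshold, C1qc passing in 7 and Tyrobp in 9 of 20 settings. Both missed it when any library other than Con replicate 2 was left out, the smallest changes coming without Con replicate 3 (-0.42 for C1qc and -0.40 for Tyrobp). Aif1 did not overlap between Con (2.17, 1.53 and 2.18 FPKM) and Bet+HMD (1.32, 1.14 and 1.4997) but missed the threshold, with a log2 fold change of -0.35 ± 0.13 (limma adjusted p = 0.0799). It passed without Con replicate 2 (-0.45, limma adjusted p = 0.0256). With the 5 genes called it made 6 of 10 that did not overlap, all lower, where 29.0% of all genes were lower and 26.1% higher. The log2 fold changes of Trem2 (-0.32), Cx3cr1 (-0.14), C1qa (-0.11) and P2ry12 (-0.07) did not pass. P2ry12 measured 18.6, 18.8 and 16.6 FPKM in Con and lay within 95% limits of -0.26 and 0.13 on the log2 scale.

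**Figure D2:**
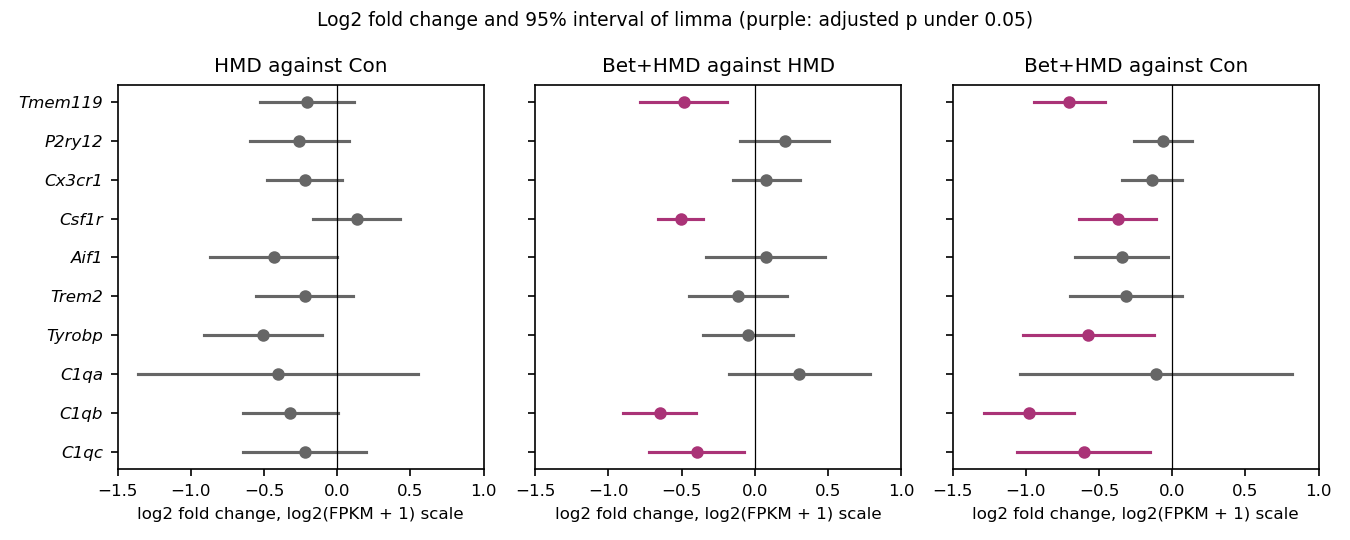
Log2 fold change on the log2(FPKM + 1) scale (horizontal axes) of the 10 microglia genes (vertical axis) in the 3 comparisons, with the 95% interval of limma. Purple marks an adjusted p under 0.05. No interval is purple in HMD against Con, 4 are in Bet+HMD against HMD and 5 in Bet+HMD against Con, all to the left of 0.

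Values of the whole table moved with the betaine groups beside these calls. The FPKM values of a library summed to 249135 to 258514 in Bet+HMD and to 288439 to 307899 in Con and HMD. Rescaling to TPM moved the median over all genes to 0.16 against HMD and 0.17 against Con. The calls over all genes became 4496 higher and 1974 lower against HMD, in place of 3118 and 3489, and 3980 higher and 1432 lower against Con, in place of 2645 and 2777. Beside that shift, the microglia genes had a median of 0.07 against HMD and -0.28 against Con. Csf1r and C1qb remained the calls against HMD, and P2ry12 passed as higher. C1qb and Tmem119 remained the calls against Con.

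Short protein-coding genes as a class were lower in Bet+HMD. In the shortest length decile, up to 1788 bases against HMD, the median log2 fold change was -0.37 against HMD, with 530 of 1196 genes lower and 108 higher. It was -0.47 against Con, with 516 of 1195 lower and 62 higher. C1qb, C1qa, Tyrobp and Aif1 belonged to this decile. The next decile, with C1qc, Tmem119 and P2ry12, stood at -0.23 and -0.27, and the sixth, with Csf1r and Trem2, at -0.07 in both comparisons. After centring within length deciles of protein-coding genes, C1qb was at -0.30 against HMD (limma adjusted p = 0.0452) and -0.49 against Con (0.00446), Tmem119 at -0.36 (0.0356) and -0.49 (0.0164), and Csf1r at -0.48 (0.000615) and -0.34 (0.0378). Those 3 genes kept their calls in both comparisons, and C1qc and Tyrobp did not under this centring. C1qa (0.66, limma adjusted p = 0.00611) and P2ry12 (0.33, 0.0226) passed as higher than HMD under that centring, which was chosen after the data had been examined. Length deciles over all genes gave another picture for the shortest members. There the shortest decile, with C1qa and Tyrobp, had a median of 0.34 against HMD and 0.20 against Con, and after centring C1qa was at -0.19 (limma adjusted p = 0.451) and Tyrobp passed as lower against HMD (-0.54, 0.00985) and against Con (-1.05, 0.00233). The sign of C1qa and of Tyrobp against HMD thus depended on which genes the deciles held. Csf1r, C1qb and Tmem119 were called lower against HMD under both kinds of centring, and P2ry12 higher (0.28, 0.0475, over all genes).

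Ratios of genes within a library do not depend on a scaling factor common to its genes. They were chosen after the values had been seen and carry no test. The ratio of C1qa to C1qb was 0.455, 0.332 and 0.888 in Con, 0.553, 0.319 and 0.617 in HMD and 1.02, 0.847 and 1.04 in Bet+HMD. It was above every HMD library in Bet+HMD, and replicate 3 of Con lay among the Bet+HMD libraries. The ratio of C1qc to C1qb, at 0.314 to 0.415 in Con, 0.324 to 0.454 in HMD and 0.434 to 0.501 in Bet+HMD, overlapped between HMD and Bet+HMD. The table gives C1qa a length of 1040 bases and C1qb 1088. Over all genes they fell in neighbouring length deciles, with medians of 0.34 (C1qa) and -0.24 (C1qb) against HMD. The part of length in their ratio was not tested. The ratio of Tmem119 to P2ry12, both surface markers of resting microglia, was 0.450 to 0.539 in Con, 0.429 to 0.709 in HMD and 0.278 to 0.343 in Bet+HMD, lowest in every Bet+HMD library. The ratio of Csf1r to Cx3cr1 was 1.34 to 1.80 in Con, 1.93 to 2.26 in HMD and 1.26 to 1.49 in Bet+HMD. It was highest in the 3 HMD libraries, and Con and Bet+HMD overlapped.

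**Figure D3:**
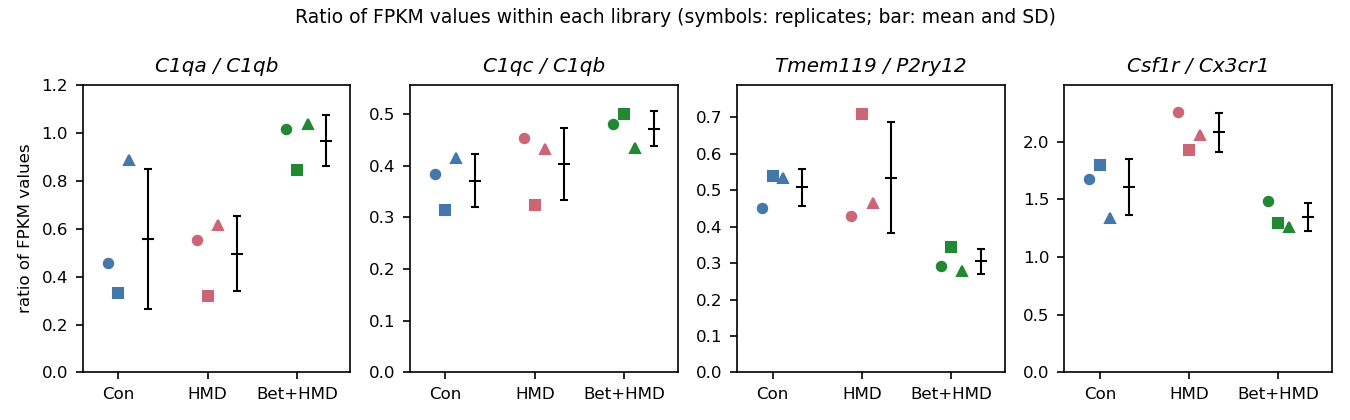
Ratio of FPKM values of pairs of microglia genes within each of the 9 libraries (vertical axes, from 0) by group (horizontal axes), with symbols for single libraries and bars for the mean and SD of 3. C1qa to C1qb is higher in every Bet+HMD library than in every HMD library, Tmem119 to P2ry12 is lowest in Bet+HMD, and Csf1r to Cx3cr1 is highest in HMD.

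The ligands of these receptors were compared with the receptors. Csf1 and Il34 both bind Csf1r. Csf1 measured 4.49, 3.83 and 4.18 FPKM in HMD and 5.68, 5.48 and 5.73 in Bet+HMD, and rose (log2 fold change 0.36 ± 0.08, limma adjusted p = 0.00848). Il34, made largely by neurons, measured 14.0, 14.6 and 13.3 FPKM in HMD and 10.7, 12.0 and 9.76 in Bet+HMD, and fell (-0.34 ± 0.09, limma adjusted p = 0.0165). The ratio of Csf1 to Il34 was 0.262 to 0.321 in HMD, 0.276 to 0.377 in Con and 0.457 to 0.587 in Bet+HMD. Csf1 was called under each of 6 scalings and Il34 in 2 of 6, and Il34 overlaps 2 annotated genes on the other strand. Cx3cl1, the ligand of Cx3cr1, averaged 106 FPKM ± 9.22 in HMD against 109 ± 5.65 after betaine (log2 fold change 0.04, limma adjusted p = 0.696). Apoe, a lipoprotein that Trem2 binds, rose from 240 ± 52.5 to 404 ± 19.96 FPKM (0.77 ± 0.15, limma adjusted p = 0.00472). Against Con, where replicate 3 alone was at 654 FPKM, Apoe did not pass (0.28, limma adjusted p = 0.602). Of the 13 ligands and partners tested, 2 rose and 1 fell against HMD, where 22.8% of all genes rose and 25.5% fell. Against Con 0 rose and 1 fell, where 19.4% of all genes rose and 20.4% fell. In HMD against Con 0 of 11 passed.

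Of 24 further microglia genes, 19 were tested in each comparison of Bet+HMD. Against HMD 4 fell and 1 rose, where 25.5% of all genes fell and 22.8% rose, and against Con 5 fell and 1 rose, where 20.4% of all genes fell and 19.4% rose. The falls of the list thus stood near the background. Tgfbr1, a receptor for the transforming growth factor signal that microglia need, fell from 8.40 ± 1.30 to 4.96 ± 0.216 FPKM against HMD (log2 fold change -0.65 ± 0.11, limma adjusted p = 0.00256). The receptor Gpr34 (-0.54 ± 0.10, limma adjusted p = 0.00443) and the protease Ctss (-0.52 ± 0.14, limma adjusted p = 0.0181) fell as well. Tgfbr1, Gpr34 and Ctss were called against Con too. Hpgds, a prostaglandin synthase, rose from 0.927 ± 0.167 to 2.05 ± 0.107 FPKM (0.66 ± 0.12, limma adjusted p = 0.00337). It passed the filter there only through Bet+HMD, and among the 17 genes at or above 1 FPKM in both groups 4 fell and 0 rose. The median of the 19 was -0.20 against HMD. After rescaling to TPM the split against HMD was 3 lower and 4 higher, so a fall of the list as a whole depended on the scaling. Gpr34 shares its span with Cask on the other strand. In HMD against Con 20 genes of the list were tested, none passed, and 13 had a lower mean. Of all 12989 genes, 6621 had a negative log2 fold change there. Sall1, a transcription factor of microglia, passed in no comparison, at 5.35 FPKM ± 0.849 in Con, 5.25 ± 0.689 in HMD and 5.29 ± 0.433 in Bet+HMD.

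Of 18 genes that reactive, disease-associated microglia are known to raise, 11 were tested. Cst7, Itgax, Clec7a, Gpnmb, Lgals3, Ccl6 and Cd52 lay below the filter in every comparison. Of the 11 tested, 8 fell and 0 rose against HMD (background 25.5% lower), and 7 fell and 0 rose against Con (20.4% lower). Lyz2, lysozyme of myeloid cells, measured 9.36, 6.15 and 8.86 FPKM in HMD and 2.62, 3.14 and 3.23 in Bet+HMD, a log2 fold change of -1.18 ± 0.15 (limma adjusted p = 0.000866). Cd9 (-0.93), the lysosomal protease Ctsd (-0.89) and Cd63 (-0.85) followed, and Cd68, a lysosomal protein of macrophages, did not pass (0.23, limma adjusted p = 0.0598). The number that fell against HMD was 5 to 8 under the 6 scalings, and under 3 of them Cd68 passed as higher. Against Con with TPM, 5 fell and 2 rose. Other brain cells also express Cd9, Cd63, Ctsd, Ctsb, B2m and Lpl. None of the 11 passed in HMD against Con, where the median was 0.02.

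Of 12 complement genes outside C1q tested, 5 rose and 2 fell against HMD, where 22.8% of all genes rose and 25.5% fell. Against Con 6 rose and 0 fell, where 19.4% of all genes rose and 20.4% fell. Cfp and Cd46 were under 1 FPKM on average in Con and HMD and passed the filter only through Bet+HMD, where they were high. Among the 10 genes at or above 1 FPKM in both groups compared, 3 rose and 2 fell against HMD and 4 rose and 0 fell against Con. The counts against HMD thus stood near the background. C4b, which C1q-bound proteases cleave in the classical pathway, measured 6.49, 6.99 and 5.50 FPKM in HMD and 9.99, 10.5 and 9.89 in Bet+HMD, a log2 fold change of 0.61 ± 0.09 (limma adjusted p = 0.00183). Every Bet+HMD library was above every Con and HMD library. Cfp, properdin, which stabilises the alternative pathway, went from 0.960 ± 0.319 to 8.08 ± 0.709 FPKM (2.22 ± 0.14, limma adjusted p = 6.19e-05), and it had as few as 8 reads in a Con library. The complement inhibitors Cd46 (1.33) and Csmd2 (1.02) rose, and the inhibitor Cd59a (-0.84) fell. Under the 6 scalings 5 to 7 genes rose and 1 to 3 fell. Cd46, Csmd1 and Csmd2 share their spans with other annotated genes. C3, the central component, was below the filter in every comparison. No complement gene passed in HMD against Con.

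Only 4 of 18 inflammatory genes were tested, since Il1b, Tnf, Il6 and most chemokines lay below 1 FPKM. Nfkbia, an inhibitor of NF-kappa-B, fell against HMD from 22.6 ± 2.76 to 8.97 ± 0.904 FPKM (log2 fold change -1.24 ± 0.11, limma adjusted p = 0.000229), and Il18 rose (0.83 ± 0.12, limma adjusted p = 0.00122). Ptgs2 and Casp1 did not pass against HMD. None of the 4 passed in HMD against Con.

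**Figure D4:**
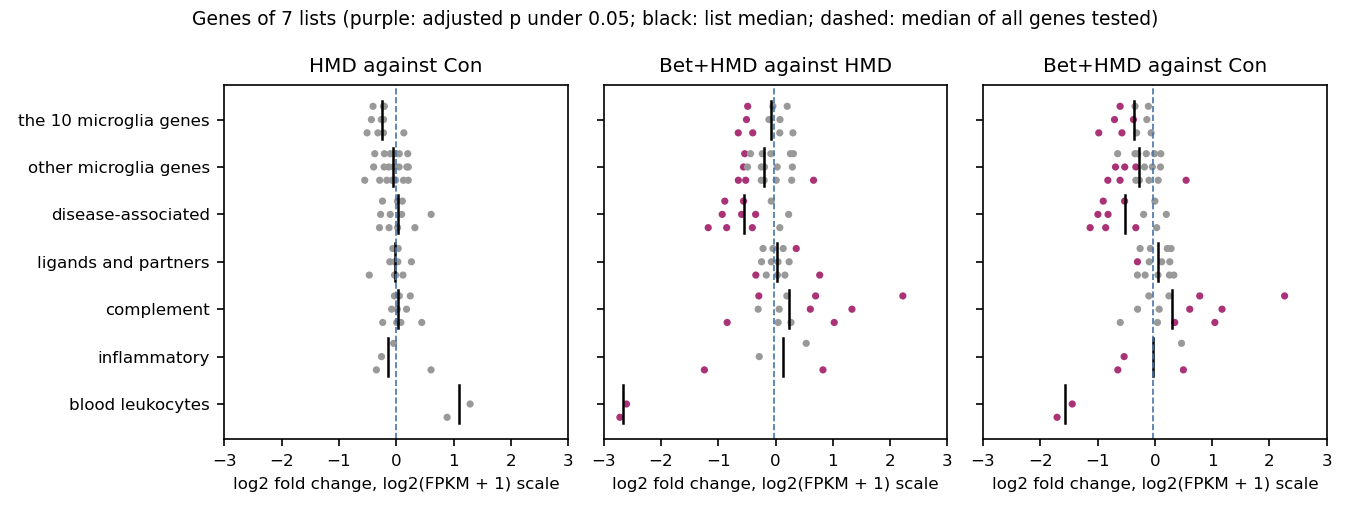
Log2 fold change on the log2(FPKM + 1) scale (horizontal axes) of the genes tested in 7 lists (vertical axis), in the 3 comparisons. Each dot is a gene, purple where the adjusted p is under 0.05, black bars are list medians, and the dashed line is the median of all genes tested. In both comparisons of Bet+HMD the disease-associated genes lie mostly to the left and the complement genes mostly to the right, while the 10 microglia genes span both sides of 0 against HMD.

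Markers of cells that resemble microglia moved as well. Of 10 markers of blood leukocytes, only S100a8 and S100a9 reached the filter. They summed with the other 8 to 3.55 to 6.58 FPKM in Con, 9.47 to 18.3 in HMD and 0.387 to 1.02 in Bet+HMD, and Ly6g was at 0 in all Bet+HMD libraries. S100a8 and S100a9 fell in both comparisons of Bet+HMD, and passed the filter only through Con or HMD, where they were higher. The 10 markers of border macrophages summed to 4.67 to 5.10 FPKM in Con, 4.72 to 6.02 in HMD and 3.88 to 4.16 in Bet+HMD, and Stab1, the only marker tested there, did not pass (log2 fold change -0.07, limma adjusted p = 0.654). None of the 10 was at 0 throughout a group. The 10 microglia genes summed to 90.5 to 158 FPKM, but sums over unlike lists do not measure the share of each cell type. Blood leukocytes and border macrophages also express Csf1r, Aif1, Tyrobp and the C1q genes. Their part in the result was not tested. Against HMD, 7 of 10 neuron markers were lower and 1 was higher, but with quantile normalization 2 were lower and 3 higher, and with TPM 4 were lower and 1 higher. Of 8 oligodendrocyte markers 4 were lower and 0 higher, and of 8 astrocyte markers 2 were lower and 0 higher. In the reported fit, 25.5% of all genes were lower and 22.8% higher.

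Across the 9 libraries the 10 genes did not vary as a block. Each gene was expressed as its log2 value less the mean of its group. Its correlation with the mean of the other 9 microglia genes was taken, as a description over 9 libraries. Depth and preparation of a library can enter such values, and whether all 9 were prepared together is not stated. The correlation was 0.84 for Tyrobp, 0.79 for C1qc, 0.78 for Trem2, 0.75 for C1qb and 0.67 for C1qa. It lay between -0.07 and 0.01 for Aif1, Tmem119, Cx3cr1 and P2ry12, and at -0.81 for Csf1r. Replicate 3 of Con, the highest library for C1qa, C1qb, C1qc, Tyrobp and Trem2, was the lowest Con library for Csf1r and P2ry12. Of 13454 genes, those most like the mean of the 10 were Cct5 (r = 0.98), a subunit of a chaperonin, Ndufa7 (0.98), of the respiratory chain, Gm9843 (0.98), a pseudogene, Cap1 (0.98), Surf1 (0.98), Kin (0.98), Tmem258 (0.97) and Jmjd6 (0.97). None of these is a microglia gene. Of the 19 further microglia genes with enough expression, 9 had an r above 0, and their median r was -0.04, beside 0.01 over all genes.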

How the data were processed

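The values were FPKM per gene that the authors deposited in 2 tables of 54532 genes. The submitters' processing notes name HISAT2 2.1.0, featureCounts 1.5.0-p3 and mm10. The study's methods give libraries depleted of ribosomal RNA and made with a stranded kit. Those methods do not mention betaine, so whether the Bet+HMD libraries were made in the same way is not stated there. FPKM times gene length and library size gave whole reads (within 0.05) for all values, and these reads give the depth. HMD was tested against Con in the table of 6 libraries, and Bet+HMD against HMD and against Con in the table of 9, because the tables were scaled separately.

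In each comparison, genes with a mean of at least 1 FPKM were tested as log2(FPKM + 1) with limma 3.58.1 (trend) in R 4.3.3, two-sided, with Benjamini-Hochberg adjustment over all genes tested. A gene was called at an adjusted p under 0.05. The pseudocount of 1 understates changes of low genes. With 3 against 3 an exact permutation test cannot go below 0.1 and was not used. The scripts were tested on simulated data. The microglia genes and the other lists were chosen with earlier results of these data known. From the other lists, up to 4 called genes in each direction with the largest changes were named, and where fewer passed up to 3 of the most abundant. Sall1, Cd68 and C3 were named after their values were seen. Some genes of the lists count in the totals and are not reported here by name. Gene positions and lengths come from GENCODE M21, in which 54409 identifiers and all 10 microglia genes matched. Promoters come from RefSeq, and those of 6 of the 10 were examined. Chromosome 18, on which Csf1r lies, was left out of the search of member promoters. The control columns were assigned to Con by elimination. Columns of per-sample values left unused numbered 0.

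The alternatives were a pseudocount of 0.1, no filter or a minimum of 5 FPKM, TPM, median-ratio, quantile and length-decile scaling, moderation without trend, protein-coding genes alone, voom on recovered reads, a fit of all 3 groups, the replicate number as a block, and leaving out each library. Centring by deciles of GC content, centring by length within protein-coding genes, and the lists under other scalings or with at least 1 FPKM in both groups were chosen after seeing the data.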

Additional observations from a re-analysis of the deposited data

How the results depend on the processing

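In HMD against Con no microglia gene was called under any alternative. Of all genes, at most 9 of 13464 were called, in the fit of all 3 groups. Against Con, 5 microglia genes were called in Bet+HMD in the reported fit. The number was 2 without a filter on low values, 2 with TPM and 3 with median-ratio centring. It was also 3 with voom on recovered reads and 3 with length-decile centring over protein-coding genes alone. All were lower. Of all genes, 2777 of 13643 were lower in the reported fit, 2266 of 31061 without a filter and 1432 of 13643 with TPM. Median-ratio centring gave 2470 of 13643, voom 2262 of 13643 and that length-decile centring 2613 of 11944. Leaving out 1 library at a time gave 2 to 5 against Con, all lower, while 1625 to 3237 of all genes were lower. Against HMD it gave 2 to 5, while 2486 to 3648 of all genes were lower and 2271 to 3342 higher. The 5, without HMD replicate 3, were 3 lower and 2 higher. The lowest count against HMD came without Bet+HMD replicate 1 or replicate 3. The median log2 fold change against HMD, -0.08 as reported, was 0.067 with TPM, -0.29 with quantile normalization and -0.19 with length-decile centring. Several genes that had not been called changed sign or gained a call. Against HMD, Tyrobp was at 0.14 with TPM, 0.033 with voom and 0.31 with length-decile centring over protein-coding genes, Aif1 at -0.22 with quantile normalization and C1qa at -0.19 with length-decile centring. Tyrobp moved the other way with length-decile centring over all genes, to -0.54 (limma adjusted p = 0.00985), and gained a call as lower. Against Con, TPM put Cx3cr1 at 0.068, P2ry12 at 0.15 and C1qa at 0.11, and quantile normalization put P2ry12 at 0.10 and C1qa at 0.044. P2ry12 was at 0.082 with length-decile centring and 0.012 with voom, and length-decile centring over protein-coding genes put Aif1 at 0.15, P2ry12 at 0.15 and C1qa at 0.38. Leaving out single libraries moved C1qa from -0.74 to 0.074 in HMD against Con and from -0.44 to 0.38 in Bet+HMD against Con, each time turning positive without Con replicate 3. Against HMD it moved Aif1 from -0.020 to 0.25, Trem2 from -0.18 to 0.0092 and Tyrobp from -0.15 to 0.065. Whether replicate numbers pair the samples was not resolved for HMD and Con, where the correlations of same-numbered deviations were -0.06, 0.35 and 0.32. In the other comparisons they were at most 0.02. With the replicate number as a block, 3 microglia genes were called against HMD and 3 against Con, and the calls over all genes fell from 6607 to 5615 and from 5422 to 3924. The single-gene values under the alternatives were pooled over the 3 comparisons, of which HMD against Con had no call to lose. Of these values, 518 kept direction and side of the threshold, 53 lost the call, 11 gained it and 22 changed sign. The cause was not tested. Depth limits Aif1 most, at 24 to 60 reads a library.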
